A study of Mus musculus with 9 samples.

Results

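The genes described here were the members of the 4 Hox clusters and of 11 further families of homeobox transcription factors (Pbx, Meis, Pknox, Msx, Dlx, Six-type, Lhx, Irx, Pitx, Alx and Barx) whose symbols carry the family name and a number, measured by RNA-seq in mouse mammary tumours. In the count tables, 51 of the 14108 genes were members, 19 of them Hox genes, and of the 85 genes that these names cover in the RefSeq annotation the other 34 were not analysed here. The listed Hox genes were 6 of 11 in the Hoxa cluster, 3 of 10 in Hoxb, 5 of 9 in Hoxc and 5 of 9 in Hoxd. Outside the clusters all 4 Pbx, 3 Meis, 2 Pknox and 3 Msx genes were listed, with 5 of 6 Irx, 4 of 6 Six-type, 4 of 6 Dlx, 5 of 8 Lhx, 1 of 3 Pitx, 1 of 3 Alx and 0 of 2 Barx genes. All 51 passed the filter on low counts, and a gene was listed only where at least 3 of the 9 tumours held 7 counts or more, so that a gene high in a single model could still be listed. *Hoxb8*, *Hoxc4*, *Hoxc8*, *Hoxc9* and *Irx6* met this only with their HR1 tumours, and *Hoxd13* and *Lhx5* only with their LM1 tumours. For these genes the listing itself called for high counts in that model, so their calls are not separate support.

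RNA was sequenced from 9 primary tumours, of which 3 grew from HR1, 3 from LM1 and 3 from LM9 breast cancer cells. HR1 is a non-metastatic mouse mammary cancer line, established from a tumour of a transgenic animal that carried human PIK3CA with the H1047R change under the ubiquitous CAG promoter, and all 3 models share this origin. LM1 and LM9 are lines grown out of lung metastases after doxycycline had switched on piggyBac transposon mutagenesis in HR1 cells, so each is a single derivative of the same parent and not a set of independent metastatic lines. The labels do not say which HR1 derivative formed the HR1 tumours. The tumours grew in the mammary fat pads of female NOD/SCID mice of 4 to 8 weeks after injection of 250000 cells and were taken before they reached 1500 mm3. GFP-positive cells were sorted from each tumour before RNA extraction. No label says that the tumours came from separate animals, so the p-values measure the spread between these tumours.

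Hox genes encode transcription factors that bind DNA through the homeodomain and give cells their position along the body axis. They sit in clusters in which the order on the chromosome follows the order of expression along the axis, and low paralogue numbers mark the anterior end. Pbx, Meis and Pknox proteins belong to the TALE class of homeodomain proteins and act as partners that sharpen the DNA binding of Hox proteins. Msx, Dlx, Six-type, Pitx, Lhx and Irx factors pattern limbs, face, sense organs and glands, and several of them, such as *Msx1* and *Msx2*, act in the budding mammary gland.

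Each tumour yielded between 32393958 and 46681945 counts on genes, and the 51 members took between 0.0586% and 0.122% of them. Values are CPM, which are gene counts scaled to a common library total, after TMM normalization, listed in the order of replicates 1, 2 and 3 of each model. A gene was called at an adjusted p under 0.05 in edgeR's quasi-likelihood test over all 14086 tested genes. The 3 tumours of HR1 varied more than those of the other models, with pairwise correlations of log2 CPM between 0.884 and 0.963 against at least 0.988 within LM1 and at least 0.992 within LM9. The study describes HR1 as low in the transcription factor *Nfib*. The tumour labelled HR1 replicate 1 goes against that description, at 1343 CPM of *Nfib* against 23.9 and 18.3 CPM in the other HR1 tumours and between 420.6 and 791.3 CPM in the LM tumours. For several members values without it are also given, while the gene lists were counted only with it.

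The epithelial markers differed between the models. Of 12 epithelial markers 7 were listed, and their summed level was 7.78 to 121.5 CPM in HR1, 158.2 to 182.2 CPM in LM1 and 15.1 to 18.9 CPM in LM9. *Epcam* was at 4.49 CPM or less and *Cdh1* at 1.20 CPM or less in all tumours, so other listed markers made up most of the LM1 sum, and Krt8 was not analysed here. Against HR1 1 was called higher and 1 lower in LM1 (median log2 fold change 1.82), and 1 higher and 1 lower in LM9 (median -1.69). Between LM9 and LM1 0 were higher and 3 lower, where 11.5% and 10.6% of all genes were. The shares of all genes against HR1 are given with the endothelial markers below. All 10 fibroblast markers were listed, at 23424 to 35254 CPM in HR1, 10404 to 13828 CPM in LM1 and 8976 to 10546 CPM in LM9, and 5 were lower in LM1 and 9 in LM9 than in HR1, with none higher, where 18.7% and 21.9% of all genes were lower. The 10 leukocyte markers summed to 162.6 to 680.4 CPM in HR1, 139.3 to 149.3 CPM in LM1 and 183.2 to 221.1 CPM in LM9, and 4 and 8 of them were lower in LM1 and LM9 than in HR1, with none higher. The 9 listed of 10 endothelial markers summed to 11.6 to 39.9 CPM in HR1, 167.2 to 230.1 CPM in LM1 and 261.1 to 298.3 CPM in LM9, mostly through *Cdh5* and *Kdr*, while *Pecam1* stayed at 6.42 CPM or less. Of these 9 markers 2 were called higher and 0 lower in LM1, against 16.7% and 18.7% of all genes. In LM9 2 were higher and 3 lower, against 20.4% and 21.9% of all genes. By the average of the LM1 and LM9 log2 fold changes against HR1, 2 were higher and 6 lower, against 19.9% and 23.6%. Their median log2 fold change was negative, at -1.43 in LM1 and -1.81 in LM9. Of the other lists, 6 of 10 skeletal muscle markers summed to 4.22 to 51.7 CPM, 4 of 10 adipocyte markers to 7.56 to 28.0 CPM and 5 of 10 Schwann cell and neural markers to 9.75 to 319.8 CPM over the 9 tumours. The fibroblast and endothelial sums separated HR1 from both LM models and the epithelial sum set LM1 apart, while for the leukocyte, muscle, adipocyte and Schwann cell sums HR1 overlapped at least 1 LM model. The part of these levels in the results was not tested. In bulk RNA, fewer cells of a type and less RNA per cell cannot be told apart.

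The RefSeq promoter table for GRCm38.p6 (the build of mm10) held 35 promoters of 30 of the 51 genes. Printed here are the 250 bases before a listed start site of 2 genes that rose in both LM1 and LM9, *Hoxa7* and *Six2*, and of 2 that were lost or nearly lost in LM9, *Hoxc4* and *Msx2*, 5′ to 3′ on the strand of the gene, with CG dinucleotides in capitals.
Hoxa7: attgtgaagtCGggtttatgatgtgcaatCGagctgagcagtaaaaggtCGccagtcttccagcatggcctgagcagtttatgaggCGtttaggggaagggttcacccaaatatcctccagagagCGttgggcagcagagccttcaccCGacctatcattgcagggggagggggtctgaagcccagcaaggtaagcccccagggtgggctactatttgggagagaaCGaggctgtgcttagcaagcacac
Six2: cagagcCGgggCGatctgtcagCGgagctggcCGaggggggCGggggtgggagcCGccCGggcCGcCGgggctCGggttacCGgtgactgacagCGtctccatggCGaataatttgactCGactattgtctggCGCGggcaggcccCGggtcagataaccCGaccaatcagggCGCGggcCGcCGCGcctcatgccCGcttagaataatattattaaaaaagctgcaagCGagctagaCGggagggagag
Hoxc4: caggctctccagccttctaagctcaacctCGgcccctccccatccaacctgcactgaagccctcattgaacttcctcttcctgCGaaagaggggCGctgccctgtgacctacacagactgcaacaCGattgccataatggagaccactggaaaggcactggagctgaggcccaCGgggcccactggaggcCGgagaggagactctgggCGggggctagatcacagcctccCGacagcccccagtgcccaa
Msx2: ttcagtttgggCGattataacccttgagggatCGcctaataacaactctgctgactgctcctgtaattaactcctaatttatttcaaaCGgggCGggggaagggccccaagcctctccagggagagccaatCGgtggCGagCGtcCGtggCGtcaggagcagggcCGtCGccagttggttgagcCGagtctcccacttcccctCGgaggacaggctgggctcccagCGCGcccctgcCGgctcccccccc
They lie at chr6:52218574-52218823 on the minus strand (*Hoxa7*), chr17:85688255-85688504 on the minus strand (*Six2*), chr15:103034145-103034394 on the plus strand (*Hoxc4*) and chr13:53472781-53473030 on the minus strand (*Msx2*). The *Hoxc4* stretch lies before a start site inside the span of the gene (chr15:103018097-103036856), and the others border the outer end of their genes. The CG count of these stretches was 7 in *Hoxa7*, 26 in *Six2*, 8 in *Hoxc4* and 16 in *Msx2*, so neither pair held the CG-rich members alone. Over the whole 300-base windows of the 35 promoters the median was 19 CG dinucleotides, against 20 in the promoters of all listed genes and 7 in all promoters. On either strand, TATAAA stood in 7 of the 35 (20.0%) against 7.60% for listed genes and 13.6% for all promoters. The NFI site TTGGC stood in 17 (48.6%) against 50.0% and 46.7%, and TAATTA, a core bound by many homeodomains, in 1 (2.86%, *Msx2*) against 2.64% and 5.29%. The TGATTNAT motif of PBX-HOX pairs stood in 1 (2.86%) against 1.44% and 3.22%. These are matches of letters only.

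The first question was how the homeobox genes of each metastatic model differed from those of HR1. Against HR1, 21 of the 51 members (41.2%) were called in LM1, 10 higher and 11 lower, where 35.5% of all tested genes were called. Without HR1 replicate 1 the balance in LM1 turned to 17 higher and 13 lower, against 26.9% and 26.0% of all genes. In LM9 28 of 51 (54.9%) were called, 9 higher and 19 lower, against 42.3% of all genes. Between the metastatic models, 15 of 51 (29.4%) were called, 2 higher and 13 lower in LM9 than in LM1, against 22.0% of all genes, of which 11.5% were higher and 10.6% lower. A further contrast, named LM1 and LM9 together, tested the average of the log2 fold changes of the LM models against HR1. By it 27 members were called, 10 higher and 17 lower, against 43.6% of all genes, 19.9% higher and 23.6% lower. Such a call can come from LM9 alone. *Irx1* (-4.51) and *Msx2* (-3.62) were called lower although every LM1 tumour lay above every HR1 tumour, and these fitted sizes depend on the prior count. The median log2 fold change of the 51 was 0.11 in LM1 and -0.39 in LM9 against HR1 and -0.34 in LM9 against LM1, while the medians of all tested genes were -0.04, -0.05 and 0.00. With limma-voom in place of edgeR, 14 of 22 called members were higher in LM1 and 12 of 28 in LM9, and 36.0% and 41.9% of all genes were called.

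The calls leaned lower in LM9 and were nearly even in LM1. In LM9, members called lower than HR1 were 37.3% of the 51 against 21.9% of all genes, and members called higher were 17.6% against 20.4%. In LM1 the shares were 21.6% lower against 18.7% and 19.6% higher against 16.7%. Among the members lower in both models were *Hoxb8*, *Hoxc4*, *Hoxc8*, *Hoxc9* and *Irx6*, which were listed only through HR1. Counting only whether the 3 tumours of a model lay wholly above or below those of another, 30 members separated LM1 from HR1 (45.6% of all genes did), 33 separated LM9 from HR1 (53.3%) and 34 separated LM9 from LM1 (63.0%). The comparisons share tumours and are not independent of each other. Of the 51, 33 were called in at least 1 of the 3 pairwise comparisons and 18 in none. Across the models 46 members reached a mean of 1 CPM somewhere, and the number with a mean of at least 1 CPM was 41 in HR1, 39 in LM1 and 32 in LM9.

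**Figure D1:**
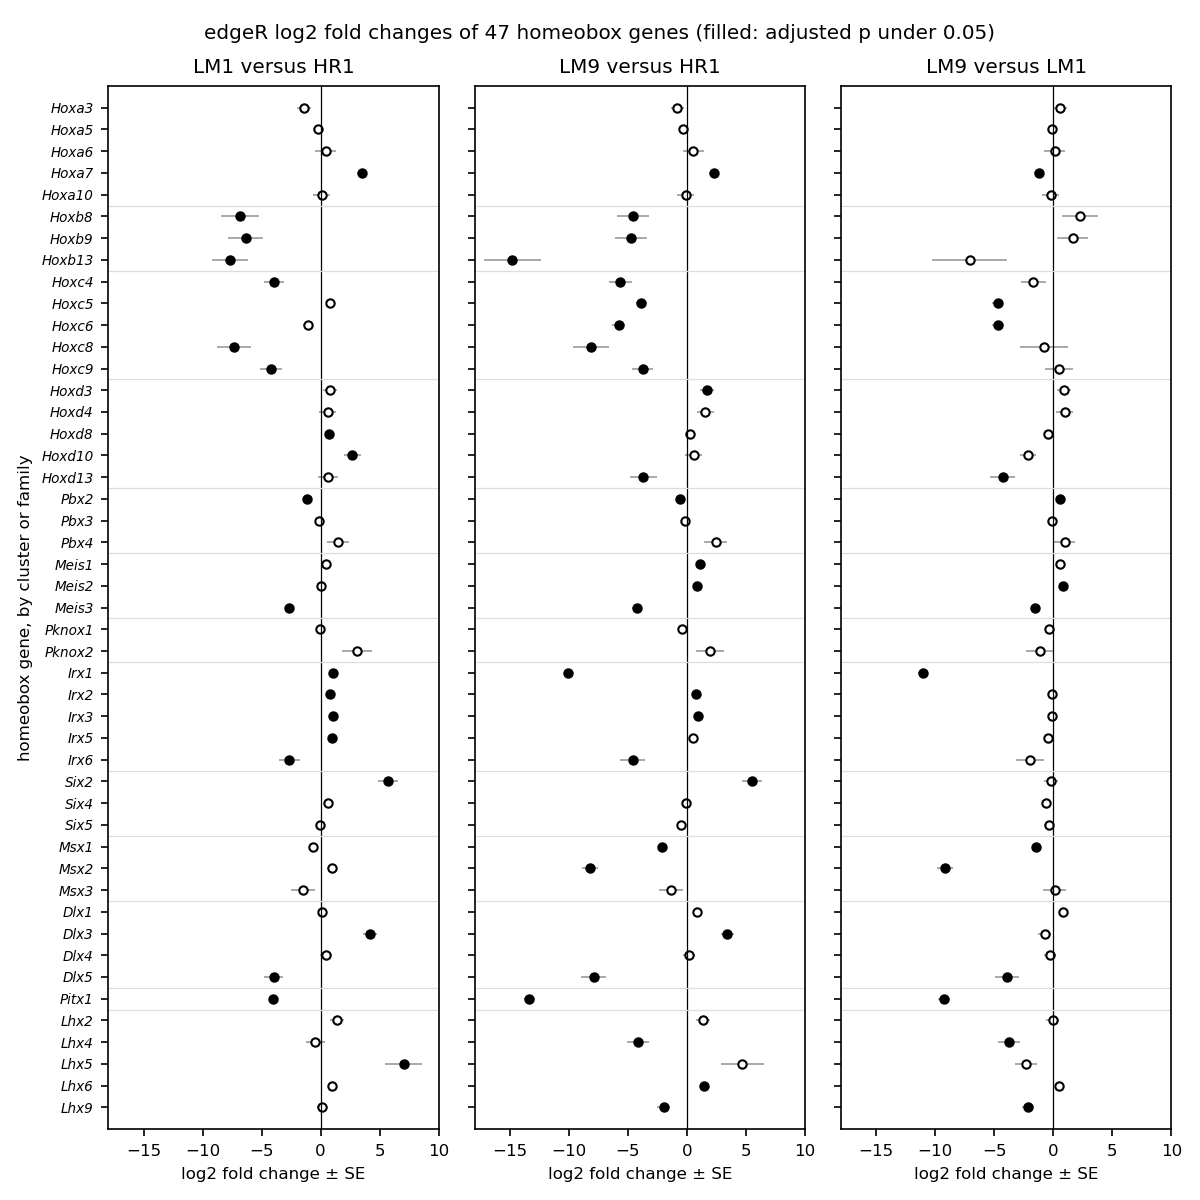
Log2 fold change with its standard error (horizontal axis) for 47 of the homeobox genes (vertical axis, by cluster or family) in LM1 versus HR1, LM9 versus HR1 and LM9 versus LM1. Filled points passed an adjusted p of 0.05 (21, 28 and 14 genes); values beyond -10 belong to genes with 2 counts or fewer in all in LM9, for which the fitted size depends on the prior count.

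The 4 Hox clusters went different ways. Levels of different genes were compared as CPM per kilobase of exon, summed over the listed genes of a cluster. The Hoxb sum was 209.6, 8.03 and 9.76 in HR1, 0.699, 0.581 and 0.602 in LM1 and 0.991, 2.06 and 1.19 in LM9. All 6 LM tumours lay below every HR1 tumour, and HR1 replicate 1 lay far above the other HR1 tumours. The Hoxc sum was 14.9, 6.91 and 6.53 in HR1, 4.86, 4.24 and 4.69 in LM1 and 0.274, 0.218 and 0.0959 in LM9, with HR1 highest, LM9 lowest and no 2 models overlapping. The Hoxd sum was 25.2, 21.4 and 32.5 in HR1, 61.3, 49.9 and 52.2 in LM1 and 40.8, 30.7 and 29.4 in LM9, with LM1 above all other tumours and HR1 and LM9 overlapping. The Hoxa sum was 19.0, 6.85 and 7.62 in HR1, 15.2, 16.1 and 15.8 in LM1 and 11.5, 10.3 and 11.2 in LM9, with HR1 replicate 1 above all other tumours and the others of HR1 below all LM tumours.

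**Figure D2:**
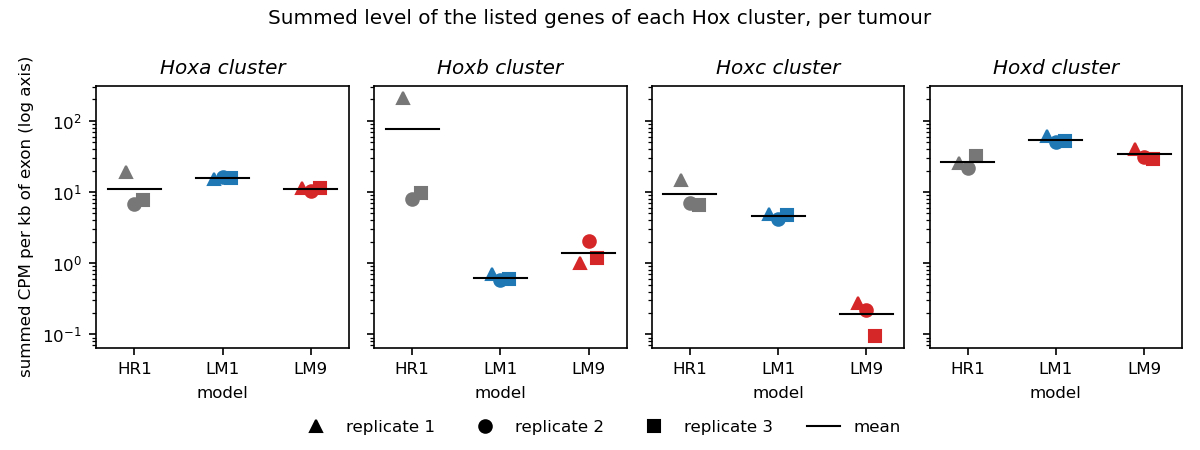
Summed CPM per kilobase of exon (log axis) of the listed genes of each Hox cluster in each tumour, by model. Symbols mark replicates and the line is the mean of the 3 tumours; Hoxb drops from 8.03 to 209.6 in HR1 to at most 2.06 in the LM tumours, and Hoxc drops to at most 0.274 in LM9.

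The make-up of the Hox transcripts changed with these shifts. Hoxd genes made up 49.6% and 57.6% of the per-kilobase Hox sum in HR1 replicates 2 and 3, 70.4% to 74.7% in LM1 and 70.2% to 76.1% in LM9. In HR1 replicate 1, Hoxb genes alone made up 78.0% and Hoxd genes 9.38%. Hoxb genes were 18.6% and 17.3% in the other HR1 tumours and at most 4.76% in any LM tumour. Hoxc genes went from 5.55% to 16.0% in HR1 to 5.93% to 6.41% in LM1 and at most 0.511% in LM9. By mean level per kilobase the order in HR1 began with *Hoxb13* (38.6), *Hoxb9* (35.0) and *Hoxd8* (23.4), but the first 2 owe that place to replicate 1 and their spread covered that of *Hoxd8*. In LM1 it began with *Hoxd8* (38.3), *Hoxd10* (15.1) and *Hoxa10* (6.91), and in LM9 with *Hoxd8* (28.5), *Hoxa10* (5.94) and *Hoxd10* (3.41). Losses in LM9 were seen at low and at high paralogue numbers, as with *Hoxc5* and *Hoxb13* below.

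In the Hoxa cluster on chromosome 6 the clear gain was *Hoxa7* (chr6:52215623-52218573, minus strand). *Hoxa7* stood at 0.399, 1.26 and 1.16 CPM in HR1, 11.3, 11.1 and 10.5 CPM in LM1 and 4.21, 4.90 and 4.91 CPM in LM9. The 3 models did not overlap, and LM9 lay between HR1 and LM1. The log2 fold change was 3.53 ± 0.41, adjusted p = 0.000503 in LM1, 2.30 ± 0.39, adjusted p = 0.00238 in LM9 and -1.23 ± 0.37, adjusted p = 0.0452 between LM9 and LM1 by edgeR. The last call was lost when any of the 6 LM tumours was left out, with values between -1.30 and -1.16. *Mira*, a non-coding RNA at chr6:52214491-52215288 that the annotation places just past the end of *Hoxa7*, stood at 1.60, 1.40 and 2.06 CPM in HR1, 23.8, 18.7 and 21.7 CPM in LM1 and 7.04, 8.61 and 8.03 CPM in LM9. Its log2 fold changes, 3.67 ± 0.23 in LM1, 2.23 ± 0.22 in LM9 and -1.44 ± 0.21 between LM9 and LM1, were all called. An antisense gene, Hoxaas3, covers 20.4% of the exonic bases of *Hoxa7*, and since the strand setting of the gene counts is not given in the sources used here, reads from the 2 strands may not have been separated.

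The other Hoxa genes described here were not called with all tumours. *Hoxa3*, *Hoxa5* and *Hoxa6* had means between 0.306 and 2.92 CPM in every model. *Hoxa10*, which patterns the reproductive tract, stood at 50.1, 8.51 and 4.48 CPM in HR1, 21.5, 22.1 and 24.3 CPM in LM1 and 20.0, 18.3 and 20.0 CPM in LM9. HR1 replicate 1 was the highest tumour and the other HR1 tumours were the lowest, so the models overlapped and no call was made (0.11 and -0.11). Without HR1 replicate 1 the log2 fold changes were 1.80 in LM1 and 1.58 in LM9, both called.

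The 3 listed genes of the Hoxb cluster on chromosome 11 lie toward its posterior end, and all 3 were lower in LM1 and in LM9. *Hoxb13* (chr11:96194316-96196610, plus strand), a gene of the tail end of the body axis and of prostate epithelium, stood at 229.8, 9.59 and 16.3 CPM in HR1, 0.462, 0.294 and 0.457 CPM in LM1 and 0, 0 and 0 CPM in LM9. Every HR1 tumour lay above every LM tumour, and no LM9 tumour held a single count. The log2 fold change in LM1 was -7.71 ± 1.52, adjusted p = 0.00934 by edgeR, and LM9 was at least 1275-fold lower than HR1 when 3 counts per tumour are taken as the floor (edgeR adjusted p = 0.00396), a bound that was 194-fold without HR1 replicate 1. *Hoxb9* stood at 257, 8.35 and 5.56 CPM in HR1, 1.26, 1.06 and 0.965 CPM in LM1 and 2.45, 4.88 and 2.90 CPM in LM9. Here too the HR1 tumours were the highest and LM1 the lowest, with log2 fold changes of -6.35 in LM1 and -4.72 in LM9. *Hoxb8*, known for its part in myeloid cells and the nervous system, stood at 15.1, 1.15 and 0.540 CPM in HR1, 0, 0.0906 and 0.0508 CPM in LM1 and 0.107, 0.435 and 0.158 CPM in LM9. It too was lower in every LM tumour than in any HR1 tumour, by -6.82 in LM1 and -4.57 in LM9.

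HR1 replicate 1 set much of the size of these Hoxb changes. Its levels were 36.9 times (*Hoxb9*), 17.9 times (*Hoxb8*) and 17.7 times (*Hoxb13*) the mean of the other HR1 tumours. Without it the log2 fold changes in LM1 were -4.98 for *Hoxb13*, -2.65 for *Hoxb9* and -4.11 for *Hoxb8*, all called. The LM1 value of *Hoxb8* rests on 6 LM1 counts, and was also called at -6.23 without LM1 replicate 1 and at -7.72 without LM1 replicate 2, a fitted value that then rests on 2 LM1 counts and depends on the prior count. In LM9 the log2 fold changes without HR1 replicate 1 were -1.03 for *Hoxb9*, still called, and -1.85 for *Hoxb8*, no longer called, while *Hoxb13* was called with no count in LM9. The LM9 calls were also lost without any of the 3 LM9 tumours, at -5.38 to -4.22 for *Hoxb8* and -5.09 to -4.53 for *Hoxb9*, and the LM1 call of *Hoxb9* was lost without LM1 replicate 2 (-6.34). Limma-voom called neither *Hoxb8* nor *Hoxb9* in either model (-5.57 and -4.21 in LM1, -3.21 and -2.65 in LM9) and did not call *Hoxb13* in LM1 (-6.23). Outside the cluster, 13 tested genes lay within 500 kb of *Hoxb13*, and 9 were called lower and 1 higher in LM9 than in HR1, against 21.9% and 20.4% of all genes, with a median log2 fold change of -1.32 and 2 of them at 3 counts or fewer in every LM9 tumour. Without HR1 replicate 1, 8 were lower and 1 higher (median -0.90), where 27.8% of all genes were lower and 27.9% higher.

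In the Hoxc cluster on chromosome 15, all 5 listed genes fell in LM9, and they split into those that LM1 had also lost and those that it kept. *Hoxc4*, *Hoxc8* and *Hoxc9* were listed only through their HR1 counts, so their falls are no separate support for a fall of the cluster. *Hoxc8* (chr15:102990539-102994275, plus strand), a gene of the thoracic part of the body axis, stood at 7.22, 0.360 and 1.29 CPM in HR1, 0.0210, 0.0227 and 0 CPM in LM1 and 0, 0.0229 and 0 CPM in LM9. The LM1 tumours held 2 counts in all and the LM9 tumours 1, and no LM tumour reached an HR1 tumour. HR1 was higher by a ratio of 164 (95% interval 44.9 to 1358) over LM1 and 336 (95% interval 59.9 to 13331) over LM9 from the pooled counts, where the intervals cover counting error only. The edgeR adjusted p was 0.00479 in LM1 and 0.00346 in LM9, and the calls remained without HR1 replicate 1, at fitted values of -5.50 and -6.32 that depend on the prior count. Without LM9 replicate 2, which held the only LM9 count, the fitted LM9 value was -9.94 and depends on the prior count. *Hoxc4* stood at 1.60, 1.13 and 2.19 CPM in HR1, 0.0840, 0 and 0.229 CPM in LM1 and 0.0215, 0.0458 and 0.0225 CPM in LM9. It fell by 3.96 in LM1 and 5.65 in LM9 on the log2 scale, with every LM tumour below every HR1 tumour. Without LM1 replicate 3 the LM1 value was -5.16. *Hoxc9*, the least abundant of the 5 at 0.232 to 0.532 CPM in HR1, was called lower in both models, with at most 2 counts in any LM tumour and pooled count ratios of 20.8 (95% interval 5.36 to 179) between HR1 and LM1 and 14.3 (95% interval 4.51 to 72.4) between HR1 and LM9. Without LM1 replicate 2, which held both LM1 counts, the fitted LM1 value of -6.82 depends on the prior count.

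*Hoxc5* and *Hoxc6* were kept in LM1 and lost in LM9. *Hoxc5* (chr15:103014008-103017429, plus strand) stood at 2.06, 2.0 and 2.93 CPM in HR1, 4.10, 3.65 and 4.78 CPM in LM1 and 0.215, 0.183 and 0.0675 CPM in LM9. LM1 lay above HR1 and LM9 below both, without overlap. The increase in LM1 was not called (0.84 ± 0.39, adjusted p = 0.126), while the log2 fold change was -3.88 ± 0.46, adjusted p = 0.000483 in LM9 against HR1 and -4.72 ± 0.47, adjusted p = 0.000706 against LM1 by edgeR. *Hoxc6*, the neighbour of *Hoxc5*, stood at 26.2, 13.5 and 10.1 CPM in HR1, 8.42, 7.29 and 7.37 CPM in LM1 and 0.451, 0.298 and 0.135 CPM in LM9. LM1 lay below HR1 in every tumour without a call (-1.10), and LM9 lay lower still, at -5.80 against HR1 and -4.69 against LM1. These 4 LM9 calls were kept whichever tumour was left out. Outside the cluster, 12 tested genes lay within 500 kb of *Hoxc4*, and 4 were called lower and 0 higher in LM9 than in HR1 (median -0.46 on the log2 scale), where 21.9% of all genes were called lower and 20.4% higher. None of the 12 was at 3 counts or fewer in every LM9 tumour. Without HR1 replicate 1, 7 of the 12 were called lower (median -0.78), where 27.8% of all genes were called lower.

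**Figure D3:**
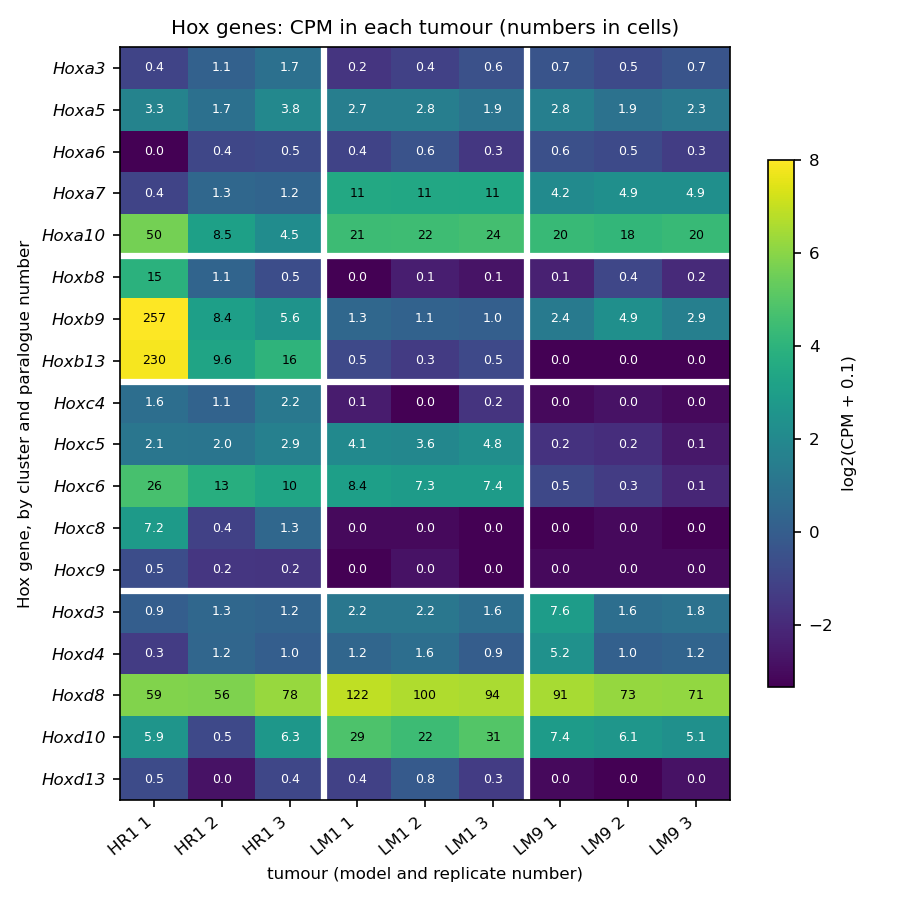
CPM of 18 of the listed Hox genes (rows, by cluster and paralogue number) in the 9 tumours (columns); numbers give CPM and colour gives log2(CPM + 0.1). The posterior Hoxb genes are brightest in HR1 replicate 1, *Hoxd8* is high in every tumour, and all 5 Hoxc genes are dark in LM9.

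The Hoxd cluster on chromosome 2 held the most abundant Hox gene of the LM tumours. *Hoxd8* (chr2:74704615-74707933, plus strand) stood at 58.8, 56.0 and 77.5 CPM in HR1, 122, 100.1 and 93.6 CPM in LM1 and 90.9, 73.1 and 70.8 CPM in LM9. LM1 lay above HR1 in all tumours, with LM9 between them and overlapping HR1. The difference between LM1 and HR1 was called (log2 fold change 0.71), and that of LM1 and LM9 together was 0.50 ± 0.16, adjusted p = 0.0305 by edgeR. The first was lost without LM1 replicate 1 (0.60), and the second without HR1 replicate 2 or replicates 1 or 2 of either LM model (0.41 to 0.52). *Hoxd10*, a limb patterning gene, stood at 5.92, 0.473 and 6.30 CPM in HR1, 28.8, 21.9 and 31.3 CPM in LM1 and 7.43, 6.11 and 5.06 CPM in LM9. The 3 LM1 tumours were the highest of all 9, and HR1 replicate 2 was the lowest. In LM1 its log2 fold change was 2.70 ± 0.73, adjusted p = 0.0207 by edgeR, which was lost without LM1 replicate 1 (2.66) or LM1 replicate 3 (2.59). LM9 lay below LM1 without overlap, but that difference was not called (-2.14), and LM9 was not called against HR1 (0.56).

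*Hoxd13*, the posterior end of the cluster and a gene of digits, was low in HR1 (0.499, 0.0450 and 0.437 CPM) and LM1 (0.305 to 0.815 CPM) and held at most 2 counts in any LM9 tumour. HR1 replicate 2 and LM9 replicate 3 each held 2 counts and were at nearly the same level. It was called lower in LM9 against HR1 and against LM1, with pooled count ratios of 13.5 (95% interval 4.24 to 68.5) and 22.3 (95% interval 7.29 to 111), but the first call was lost without HR1 replicate 3 or LM9 replicates 1 or 2 (-3.66 to -3.19) and kept at -4.54 without LM9 replicate 3, and the second was lost without any of the 6 LM tumours (-5.15 to -3.72), all fitted values that depend on the prior count. *Hoxd3* stood at 0.931, 1.28 and 1.16 CPM in HR1, 2.16, 2.17 and 1.60 CPM in LM1 and 7.62, 1.60 and 1.80 CPM in LM9. LM9 lay above HR1 in every tumour (log2 fold change 1.70 ± 0.60, adjusted p = 0.0479 by edgeR), but LM9 replicate 1 made most of the difference. Without it the value was 0.59 and no longer called, and the call was also lost without any of the HR1 or LM1 tumours (1.60 to 1.81). *Hoxd4* stood at 0.299, 1.22 and 0.952 CPM in HR1, 1.24, 1.59 and 0.914 CPM in LM1 and 5.19, 1.01 and 1.17 CPM in LM9 and was not called. Both genes were highest in LM9 replicate 1. They share 388 exonic bases, and the readthrough gene Gm28230 covers 53.1% of *Hoxd3* and 39.1% of *Hoxd4*, so the levels of these neighbours cannot be told apart fully in exon counts. The antisense *Hoxd3os1* stood at 1.90, 3.49 and 4.17 CPM in HR1, 13.5, 8.11 and 10.5 CPM in LM1 and 4.85, 5.77 and 4.82 CPM in LM9 and was called higher in LM1 (1.74).

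Among the TALE partners of Hox proteins, *Pbx2* was called in all 3 comparisons and *Pbx3* and *Pbx4* in none. *Pbx3* stood at means of 18.5 ± 3.24 (SD, n = 3) CPM in HR1, 17.0 ± 1.07 in LM1 and 16.1 ± 0.885 in LM9. *Pbx2* (chr17:34592259-34597400, plus strand) stood at 41.5, 30.1 and 32.5 CPM in HR1, 16.1, 15.1 and 15.1 CPM in LM1 and 23.5, 24.2 and 21.2 CPM in LM9. The models did not overlap, with LM1 lowest and LM9 in between. Its log2 fold change was -1.17 ± 0.16, adjusted p = 0.00103 in LM1, -0.59 ± 0.16, adjusted p = 0.0159 in LM9 and 0.57 ± 0.16, adjusted p = 0.0324 between LM9 and LM1 by edgeR, so *Pbx2* was with *Meis2* 1 of the 2 members called higher in LM9 than in LM1. The LM9 versus HR1 call was lost without LM9 replicate 1 (-0.61) or LM9 replicate 3 (-0.54), and the LM9 versus LM1 call without any of the 6 LM tumours (0.50 to 0.63). *Pbx2* shares 227 exonic bases with its neighbour Gpsm3. *Pbx4* reached a mean of 3.52 ± 0.417 CPM in LM9.

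The Meis genes separated by member. *Meis3* (chr7:16174012-16186510, plus strand) stood at 2.03, 2.93 and 2.29 CPM in HR1, 0.378, 0.317 and 0.432 CPM in LM1 and 0.107, 0.137 and 0.135 CPM in LM9. It was highest in HR1 and lowest in LM9, with no overlap of the 3 models. The values were log2 fold changes of -2.68 ± 0.36, adjusted p = 0.00103 in LM1, -4.23 ± 0.40, adjusted p = 0.000163 in LM9 and -1.55 ± 0.38, adjusted p = 0.0228 between LM9 and LM1 by edgeR. The last was lost without any LM tumour but LM1 replicate 2 (-1.64 to -1.44). *Meis1*, a cofactor of Hox proteins that is known from leukaemia, stood at 9.74, 6.93 and 4.43 CPM in HR1, 10.4, 10.6 and 8.26 CPM in LM1 and 14.0, 14.5 and 15.6 CPM in LM9, and LM9 was above all other tumours (log2 fold change 1.07 ± 0.28, adjusted p = 0.0160 against HR1 by edgeR). *Meis2* stood at 14.5, 7.27 and 9.60 CPM in HR1, 12.1, 11.3 and 8.48 CPM in LM1 and 19.3, 20.6 and 17.8 CPM in LM9, with LM9 again above all other tumours, at 0.88 against HR1 and 0.86 ± 0.27, adjusted p = 0.0485 against LM1 by edgeR. The *Meis1* call was lost without LM9 replicate 2 (1.06) or LM9 replicate 3 (1.02). The *Meis2* calls were lost without HR1 replicates 2 or 3 or any LM9 tumour against HR1 (0.67 to 0.93) and without any of the 6 LM tumours against LM1 (0.72 to 0.96). For LM1 and LM9 together, *Meis1* was higher by 0.77 ± 0.25, adjusted p = 0.0342, which was called only without HR1 replicate 1 or LM1 replicate 3 among the fits that leave a tumour out (0.52 to 0.79 in the other 7).

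*Pknox1* was at 17.0 to 27.5 CPM in all tumours and was not called. *Pknox2* stood at 2.39, 0.0225 and 0.0515 CPM in HR1, 7.29, 8.02 and 5.26 CPM in LM1 and 2.96, 2.52 and 3.76 CPM in LM9. All LM tumours lay above all HR1 tumours, and HR1 replicate 1 lay close to LM9. With it no call was made (3.09 in LM1, 1.94 in LM9), and without it both were called, at fitted values of 7.47 and 6.31 that rest on 3 HR1 counts and depend on the prior count. From the pooled counts without it, LM1 was higher than HR1 by a ratio of 192.2 (95% exact interval 65.6 to 933.8) and LM9 by 85.5 (29.1 to 416.4). Limma-voom called both with all tumours (5.48 and 4.33).

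The Irx genes lie in 2 clusters, and the largest fitted value among the members called between the metastatic models fell inside 1 of them. That rank is not settled, since the interval of its count ratio overlapped that of *Msx2* and *Pitx1* has only a lower bound. *Irx1* (chr13:71958232-71963723, minus strand), an Iroquois factor of limb, lung and heart development, stood at 23.1, 16.3 and 17.3 CPM in HR1, 41.1, 39.1 and 35.7 CPM in LM1 and 0, 0.0229 and 0.0225 CPM in LM9. LM1 lay above HR1 in every tumour, while the LM9 tumours held 0, 1 and 1 counts. The log2 fold change in LM1 was 1.03 ± 0.23 (called). From the pooled counts LM9 was lower than HR1 by a ratio of 1243 (95% interval 344 to 10272) and lower than LM1 by 2614 (95% interval 723 to 21587), with edgeR adjusted p = 3.35e-06 and 1.20e-05. No listed gene lay within 500 kb of *Irx1*. Its cluster neighbour *Irx2* (chr13:72624430-72634196, plus strand) stood at 24.1, 19.0 and 17.8 CPM in HR1, 40.6, 38.7 and 29.0 CPM in LM1 and 40.5, 32.3 and 29.8 CPM in LM9. *Irx2* was higher in both LM models without overlap (0.83 in LM1 and 0.75 in LM9, lost without LM1 replicate 1 at 0.74 and without LM9 replicate 1 at 0.62), so LM9 had lost 1 gene of the pair and not the other.

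In the other cluster, on chromosome 8, the members went different ways. *Irx3* stood at 90.2, 54.8 and 82.3 CPM in HR1, 182, 173 and 126 CPM in LM1 and 167, 149.9 and 121 CPM in LM9, and no LM tumour overlapped HR1 (log2 fold change 1.08 ± 0.23, adjusted p = 0.00739 in LM1 and 0.95 ± 0.23, adjusted p = 0.0112 in LM9 by edgeR). Per kilobase *Irx3* was the most abundant of all 51 genes in LM1 (58.0) and LM9 (52.8). *Irx5* stood at 29.9, 34.0 and 52.5 CPM in HR1, 84.7, 75.9 and 66.7 CPM in LM1 and 62.7, 53.0 and 47.5 CPM in LM9. It was called higher in LM1 (0.96) and not in LM9 (0.49), where the ranges overlapped with HR1. *Irx6*, at 0.283 to 0.665 CPM in HR1 and listed only through its HR1 counts, was called lower in both, and the LM1 call was kept only without HR1 replicates 1 or 3 (-3.13 to -2.11 without the other 7).

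*Msx1* and *Msx2*, targets of BMP signalling that act in mammary bud and limb, were lower in LM9 by very different amounts. *Msx2* (chr13:53466881-53472780, minus strand), whose promoter is printed above, stood at 4.19, 2.23 and 2.86 CPM in HR1, 6.43, 5.07 and 6.68 CPM in LM1 and 0, 0.0229 and 0 CPM in LM9. A single count was seen over the 3 LM9 tumours, and LM1 lay above HR1. Without that tumour, LM9 replicate 2, the fitted values were -10.02 and -11.00 and depend on the prior count. With all tumours LM9 was lower than HR1 by a ratio of 399 (95% interval 71.2 to 15819) and lower than LM1 by 815 (95% interval 146 to 32219) from the pooled counts, with edgeR adjusted p = 0.000102 and 0.000360. The difference between LM1 and HR1 was not called with all tumours (0.97) and was called without HR1 replicate 1 (1.26). *Msx1* stood at 47.0, 23.4 and 30.1 CPM in HR1, 21.1, 19.5 and 22.6 CPM in LM1 and 7.56, 8.31 and 7.58 CPM in LM9. LM9 lay below all other tumours, at -2.10 against HR1 and -1.43 against LM1, and LM1 lay below HR1 without a call (-0.67). *Msx3* was at 1.88 CPM or less in HR1 replicates 1 and 3, 19.8 CPM in HR1 replicate 2 and 1.91 to 3.70 CPM in the LM tumours, and was not called.

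*Pitx1* was far lower in LM1 than in HR1 and not detected in LM9. *Pitx1* (chr13:55825044-55836190, minus strand), which specifies the hindlimb, stood at 34.3, 33.8 and 24.9 CPM in HR1, 2.10, 1.90 and 1.50 CPM in LM1 and 0, 0 and 0 CPM in LM9. The 3 models were far apart and did not overlap, and the LM9 tumours held no count. The log2 fold change in LM1 was -4.08 ± 0.26, adjusted p = 0.000170 by edgeR. LM9 was at least 464-fold lower than HR1 and at least 27.4-fold lower than LM1 at a floor of 3 counts per tumour, with edgeR adjusted p = 1.42e-05 and 0.000345. Of 21 tested genes within 500 kb of *Pitx1*, 8 were lower and 1 was higher in LM9 than in HR1, where 21.9% of all genes were lower and 20.4% higher. Their median log2 fold change was -0.18, and 0 were at 3 counts or fewer in every LM9 tumour. Without HR1 replicate 1, 8 were lower and 1 was higher (median -0.25), where 27.8% of all genes were lower and 27.9% higher. The 4 members on chromosome 13 were *Pitx1*, *Msx2*, *Irx1* and *Irx2*. The first 3 held at most 1 count in any LM9 tumour while *Irx2* did not fall. Of 3 tested genes within 500 kb of *Msx2*, 1 was higher and 2 were lower in LM9 than in HR1, with and without HR1 replicate 1. None of them was at 3 counts or fewer in every LM9 tumour.

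The Dlx family also moved in opposite directions. *Dlx3* (chr11:95120117-95125296, plus strand), a factor of skin, hair and placenta, stood at 1.10, 4.14 and 0.746 CPM in HR1, 36.8, 45.0 and 27.3 CPM in LM1 and 19.4, 23.5 and 22.6 CPM in LM9. Every LM tumour lay above every HR1 tumour. The log2 fold change was 4.17 ± 0.60, adjusted p = 0.00137 in LM1 and 3.43 ± 0.58, adjusted p = 0.00240 in LM9 by edgeR, and without HR1 replicate 2 the values were 5.31 and 4.57. *Dlx5*, a factor of bone and the branchial arches, stood at 1.63, 3.76 and 12.6 CPM in HR1, 0.504, 0.340 and 0.279 CPM in LM1 and 0.0429, 0 and 0.0225 CPM in LM9. The HR1 tumours were the highest and the LM9 tumours, with 3 counts in all, the lowest. By log2 fold change it was -3.99 ± 0.82, adjusted p = 0.00638 in LM1 by edgeR, and the pooled counts gave ratios of 280.1 (95% interval 95.4 to 1361) between HR1 and LM9 and 17.1 (95% interval 5.53 to 85.8) between LM1 and LM9, both called. Without HR1 replicate 3 the values were -2.84 in LM1 and -6.75 in LM9, without LM9 replicate 1 the second was -8.71 (both LM9 values are fitted and depend on the prior count), and the call between LM9 and LM1 was lost without any of the 6 LM tumours. *Dlx1* and *Dlx4* had means between 1.65 and 4.41 CPM in the 3 models and were not called.

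*Six2* (chr17:85662736-85688254, minus strand), a factor of kidney progenitors whose promoter is printed above, was nearly silent in HR1 and present in both LM models. *Six2* stood at 0, 0.0901 and 0 CPM in HR1, 2.12, 1.72 and 1.93 CPM in LM1 and 1.37, 1.81 and 1.78 CPM in LM9. The HR1 tumours held 4 counts, all in replicate 2, and every LM tumour lay above every HR1 tumour. Its log2 fold change was 5.71 ± 0.84, adjusted p = 0.00140 in LM1 and 5.49 ± 0.83, adjusted p = 0.00141 in LM9 by edgeR. Without HR1 replicate 2 the HR1 tumours held no count, and the fitted values of 9.33 and 9.11 then depend on the prior count. *Six4* and *Six5* were not called, at means between 7.45 and 12.3 CPM. Of 20 partners of Six-type, Pbx, Dlx and Lhx factors 14 were listed, and 5 were higher and 4 lower in LM1, and 6 higher and 2 lower in LM9, than in HR1 (of all genes, 16.7% and 18.7% in LM1 and 20.4% and 21.9% in LM9). *Eya4*, a co-activator of Six-type proteins, was called higher in LM9 (1.39) and not in LM1 (-0.31).

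Lhx genes encode LIM-homeodomain factors of neurons, limb and gonad. *Lhx6* stood at 4.09, 12.2 and 6.23 CPM in HR1, 14.9, 17.0 and 13.2 CPM in LM1 and 20.1, 21.8 and 19.6 CPM in LM9. Both LM models lay above HR1 (log2 fold change 1.45 ± 0.35, adjusted p = 0.0115 in LM9 by edgeR, and 1.00 without a call in LM1). *Lhx4*, a pituitary and motor neuron factor, stood at 4.26, 0.518 and 0.618 CPM in HR1, 1.26, 1.04 and 1.65 CPM in LM1 and 0.150, 0.0458 and 0.0900 CPM in LM9. LM9 was lowest in every tumour, while HR1 replicate 1 was the highest tumour of all and LM1 overlapped HR1. Its log2 fold change was -4.18 ± 0.94, adjusted p = 0.00832 in LM9 against HR1 and -3.74 ± 0.93, adjusted p = 0.0229 against LM1 by edgeR. Without HR1 replicate 1 the first was -2.52 and still called, and the second was lost without any LM tumour but LM1 replicate 2 (-4.22 to -3.45). For LM1 and LM9 together the value of -2.31 ± 0.68, adjusted p = 0.0244 was lost without that tumour (-0.65) and without LM1 replicates 1 or 2 or LM9 replicates 2 or 3 (-2.29 to -2.15).

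*Lhx9* stood at 2.49, 2.05 and 0.798 CPM in HR1, 1.91, 1.65 and 2.36 CPM in LM1 and 0.258, 0.458 and 0.630 CPM in LM9, with LM9 below all others (-1.98 against HR1 and -2.13 against LM1). Its call against HR1 was lost without LM9 replicates 1 or 2 (-1.70 and -2.01), as was that against LM1, which was also lost without LM1 replicates 1 or 3 (-2.18 to -1.85). *Lhx5* was at 0 in all HR1 tumours and at 0.229 to 0.589 CPM in LM1, where it was called higher. *Lhx2*, a factor of hair follicle stem cells and limb buds, stood at 13.9, 3.47 and 2.42 CPM in HR1, 17.9, 19.1 and 15.1 CPM in LM1 and 14.9, 19.5 and 15.8 CPM in LM9. HR1 replicate 1 lay near the LM tumours and the other HR1 tumours well below, so that no call was made (1.40 and 1.35), whereas without it the values were 2.56 and 2.51 and both were called.

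**Figure D4:**
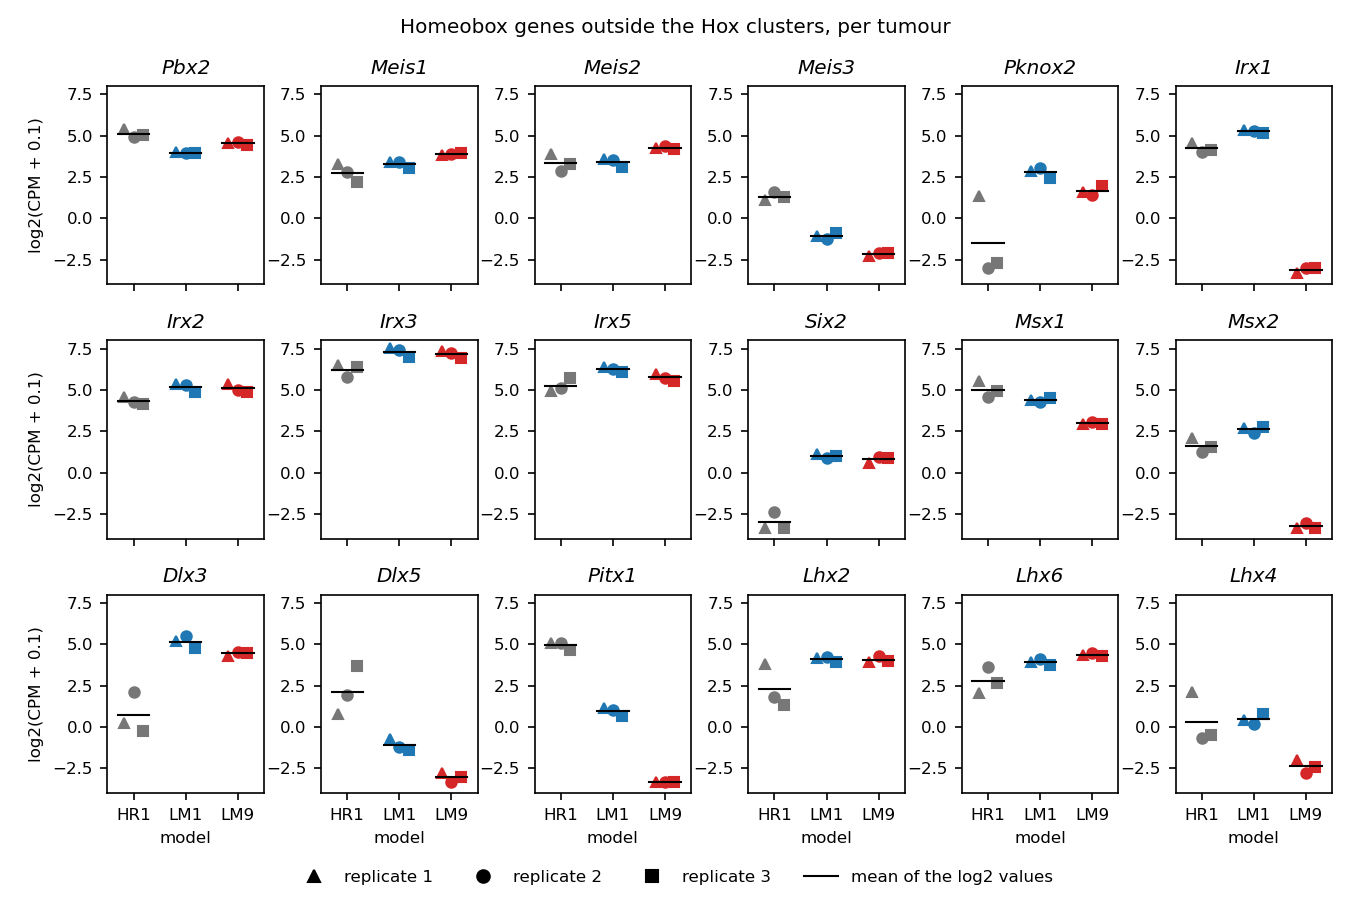
Log2(CPM + 0.1) of 18 homeobox genes outside the Hox clusters in each tumour, by model. Symbols mark replicates and lines the mean of the log2 values; *Irx1*, *Msx2* and *Pitx1* fall to the bottom of the scale in LM9, *Dlx3* and *Six2* lie higher in both LM models, and HR1 replicate 1 lies away from the other HR1 tumours for *Pknox2*, *Lhx2* and *Lhx4*.

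HR1 replicate 1 held the highest HR1 level of 26 members and the lowest of 17, lay between the others for 6 and was tied with another HR1 tumour for 2. For 8 members it was over 5 times the mean of the other HR1 tumours and for 5 the mean of the others was over 5 times its level. Without this tumour 30 members were called in LM1 (17 higher and 13 lower), 33 in LM9 (12 higher and 21 lower) and 24 between LM9 and LM1 (5 higher and 19 lower), while the share of all tested genes called rose to 52.8%, 55.7% and 45.5%. All 21 calls of the full fit in LM1 were kept and 9 were added. Not all added calls are named in this report, so a member described as not called may be called without this tumour. In LM9 26 of 28 were kept, *Hoxb8* and *Hoxd3* were lost and 7 were added. Between LM9 and LM1 the tumour is in neither model compared and takes part only through the shared fit, such as its estimate of spread and the filter on low counts. There all 15 were kept and 9 were added, among them *Hoxb13* (at least 6.05-fold lower in LM9 at a floor of 3 counts per tumour), *Pknox2* (-1.16) and *Hoxb9* (1.62). No called member changed direction.

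**Figure D5:**
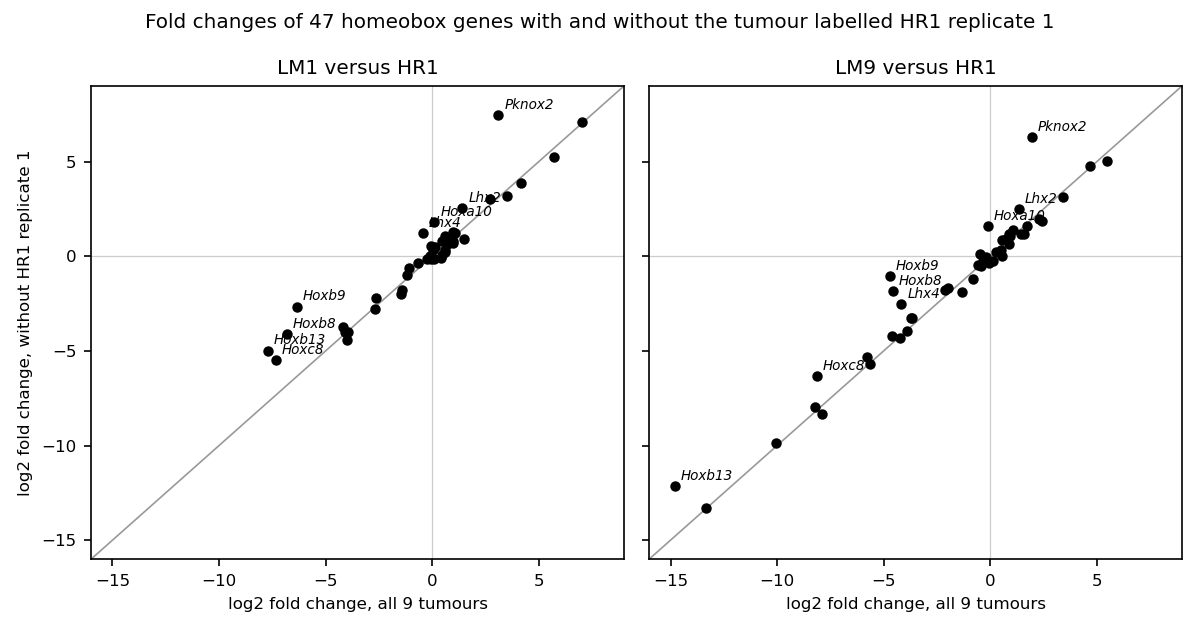
Log2 fold change of 47 of the homeobox genes with all 9 tumours (horizontal axis) and without the tumour labelled HR1 replicate 1 (vertical axis), in LM1 versus HR1 and LM9 versus HR1. The grey diagonal marks equal values and named genes moved by more than 1, and *Hoxb9* and *Hoxb8* move toward 0 and *Pknox2* and *Hoxa10* move up.

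The same models were compared for the regulators that keep Hox genes on or off. Trithorax and MLL complexes maintain Hox expression through methylation of lysine 4 of histone H3, and Polycomb complexes repress Hox genes. The counts and medians of these lists include HR1 replicate 1 and were not computed without it. Over all tested genes, 16.7% were called higher and 18.7% lower in LM1, and 20.4% higher and 21.9% lower in LM9, and the counts of the lists below stand against these shares. All 15 trithorax and MLL genes were listed, and 1 was higher and 1 lower in LM1, and 6 were higher and 1 lower in LM9, than in HR1, with medians of 0.26 and 0.72 on the log2 scale against -0.04 and -0.05 over all genes. *Kmt2d* stood at 15.9, 21.1 and 14.7 CPM in HR1, 46.1, 56.0 and 22.1 CPM in LM1 and 58.8, 51.9 and 41.1 CPM in LM9 and was called higher in both (1.26 and 1.55). *Kmt2c* (1.10) and *Kmt2b* (1.31) were called higher in LM9 and not in LM1, and the MLL gene *Kmt2a* itself was not called. *Psip1*, which tethers MLL to chromatin, stood at 1227, 46.5 and 47.5 CPM in HR1, another gene in which replicate 1 stood far above the other tumours.

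All 23 Polycomb genes were listed, and 7 were higher and 4 lower in LM1, and 9 higher and 5 lower in LM9, than in HR1, against 16.7% and 18.7% of all genes in LM1 and 20.4% and 21.9% in LM9. The median log2 fold changes of the list were 0.32 and 0.33. *Ezh2*, the methyltransferase of the repressive mark on lysine 27 of histone H3, stood at 28.5, 29.3 and 33.6 CPM in HR1, 70.8, 75.7 and 67.4 CPM in LM1 and 58.1, 56.8 and 59.5 CPM in LM9 and was called higher in LM1 (1.23) and LM9 (0.93), with HR1 below all LM tumours. Its relative *Ezh1* was called higher in LM9 (0.94), and its cofactor *Suz12* in both (0.70 and 0.89). *Ring1* (-1.15 and -1.26) and *Rnf2* (-0.61 and -0.63), the ubiquitin ligases of Polycomb repressive complex 1, were called lower in both. The demethylase *Kdm6b*, which removes the lysine 27 mark, stood at 20.7, 19.5 and 16.0 CPM in HR1, 28.3, 48.0 and 17.2 CPM in LM1 and 81.3, 81.3 and 52.3 CPM in LM9 and was called higher in LM9 (1.93).

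Retinoic acid switches on anterior Hox genes. Of 22 genes of this pathway 17 were listed, and 3 were higher and 4 lower in LM1, and 2 higher and 4 lower in LM9, than in HR1, with medians of -0.35 and -0.33. *Cyp26a1*, which degrades retinoic acid, stood at 0.399, 0.608 and 0.746 CPM in HR1, 14.3, 11.3 and 14.7 CPM in LM1 and 1.76, 0.778 and 0.765 CPM in LM9, so that LM1 lay above all other tumours (4.51, called). *Dhrs3*, an enzyme that returns retinal to retinol, stood at 20.1, 27.7 and 15.7 CPM in HR1, 2.27, 2.06 and 2.67 CPM in LM1 and 5.75, 2.70 and 4.52 CPM in LM9 and was called lower in LM1 (-3.18) and LM9 (-2.29). The receptor *Rara* was called higher (0.88 and 1.36) and *Rarg* lower (-1.28 and -0.84) in both. Of 20 Hox and homeobox non-coding RNAs 3 were listed, among them *Mira* and *Hoxd3os1* above, and 2 were higher in LM1 and 1 in LM9.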

How the data were processed

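RNA-seq of sorted GFP-positive cells from 9 tumours (HR1, LM1 and LM9, 3 each, from the labels) was analysed. The authors read TruSeq stranded mRNA libraries from a single end for 50 nt, aligned them with STAR to mm10 (the build also stands in the submitters' processing notes) and counted 5′ ends on exon unions with QuasR's qCount. They deposited whole-number counts per Entrez gene for each tumour, without normalization. Tool versions and the strand setting of the gene counts are not given in the sources used here. Totals were 32393958 to 46681945 per tumour, where 3 counts are at most 0.0997 CPM after TMM scaling. PCR copies cannot be told from molecules, so count intervals (exact, 95%) and floors cover counting error only.

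Symbols came from RefSeq (GRCm38.p6, 14089 of 14108 genes matched) and coordinates and exon unions from GENCODE for GRCm38. The test was edgeR 4.0.16's quasi-likelihood F-test (R 4.3.3, TMM, filter by expression, robust) in 1 model over the 3 groups, Benjamini-Hochberg adjusted over 14086 genes at 0.05. Fold changes are log2 ± SE. Folds against a model with no count use 3 counts per tumour and are lower bounds, and those against 1 to 3 pooled counts are count ratios. The code was tested on simulated data.

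The members, the gene lists (markers, regulators, other homeobox genes) and the naming rule were chosen with earlier results of these data known. By that rule each member is accounted for (4 enter the counts and sums but are not reported here), tumour values are given for called members with a mean of at least 1 CPM in a model, and full statistics for the largest called increase and decrease per family and comparison. Others are named for their spread after their values were seen. The alternatives were RLE factors or library size only, no filter or one of 1 CPM in 3 tumours or more, the tests of limma-voom 3.58.1 and DESeq2 1.42.0, a 2-fold minimum, only the 6 tumours compared, the replicate number as a block, and each tumour left out. Tables and figures used Python 3.11.15 with pandas 2.3.3, numpy 2.4.6, scipy 1.17.1 and matplotlib 3.10.9.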

Additional observations from a re-analysis of the deposited data

Results flagged for a closer look

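*Irx1* was set apart because the 2 metastatic models moved in opposite directions from HR1. Every LM1 tumour (41.1, 39.1 and 35.7 CPM) lay above every HR1 tumour (23.1, 16.3 and 17.3 CPM), and every LM9 tumour (0, 0.0229 and 0.0225 CPM) lay below. The test of the difference itself, LM9 against LM1, gave a log2 fold change of -11.08 ± 0.41 and an adjusted p of 1.20e-05 by edgeR. The fitted size depends on the prior count, and the pooled counts of 5088 in LM1 and 2 in LM9 gave a ratio of 2614 (95% interval 723 to 21587).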

How the results depend on the processing

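Across the 9 other settings and the 9 fits that left a tumour out, no result of a named member with full statistics changed direction. *Hoxa10*, which was not called with all tumours, changed sign in LM9 versus HR1 without HR1 replicate 1. Of 53 results of named members with full statistics, 37 were called in every fit and 39 in each of the 9 other settings that gave a value. The number of members called held within 1.5 times in LM1 versus HR1, LM9 versus HR1 and both together under every such setting. For LM9 versus LM1, 15 members became 31 with only the 6 tumours compared, where 56.3% of all genes were called, and 8 with the replicate number as a block. Without 1 tumour the numbers ranged from 16 to 30 in LM1 versus HR1, 20 to 33 in LM9 versus HR1, 6 to 24 in LM9 versus LM1 and 23 to 35 for both LM models. The highest value came without HR1 replicate 1 in all 4, and between LM9 and LM1 the number was 6 to 9 without any single LM tumour.

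Over all genes, the calls were 4994, 5958, 3102 and 6138 in the same order. A 2-fold minimum left 3086, 3606, 1584 and 3335. With only the 6 tumours compared there were 3008 in LM1 versus HR1 and 7709 in LM9 versus LM1. Without 1 tumour they ranged from 3121 to 7453, 3768 to 7862, 1150 to 6413 and 4928 to 7902, again with the highest without HR1 replicate 1. The count fell by over 1.5 times without LM1 replicates 1 (3121) or 2 (3278) in LM1 versus HR1, without LM9 replicate 1 (3768) in LM9 versus HR1 and without any LM tumour but LM1 replicate 2 between LM9 and LM1 (1150 to 1451).

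Replicate numbers were shared across models, but tumours with the same number did not deviate together (correlations of -0.119 to 0.196 across genes), so the numbers were not taken as pairs. With the number as a replicate block, 22, 24, 8 and 26 members and 4204, 5078, 2295 and 5234 genes were called, and the cause of the drop in LM9 versus LM1 was not tested.

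The spread of HR1, the 3 tumours per model and, for members at a few counts, the counting error limit these results, so a member without a call is not shown to be alike in the models.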

Other observations

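Beyond the families above, 39 of 72 other homeobox genes were listed. Against HR1 11 were higher and 5 lower in LM1, and 14 higher and 3 lower in LM9, and between LM9 and LM1 7 were higher and 4 lower, with medians of 0.29, 0.45 and 0.07 on the log2 scale. Of all tested genes, 16.7% were higher and 18.7% lower in LM1, 20.4% and 21.9% in LM9, and 11.5% and 10.6% between LM9 and LM1. The Paired-related genes *Prrx1* and *Prrx2*, both active in mesenchyme, parted. *Prrx1* stood at 119, 95.8 and 207 CPM in HR1, 235, 268 and 229 CPM in LM1 and 402, 388 and 366 CPM in LM9 and was called higher in both models (0.79 and 1.45). *Prrx2* stood at 347, 211 and 398 CPM in HR1, 94.5, 78.6 and 106 CPM in LM1 and 79.6, 58.3 and 70.9 CPM in LM9 and was called lower in both (-1.78 and -2.19). No HR1 tumour overlapped the LM tumours of either gene.

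*Zeb1* and *Zeb2*, repressors of E-cadherin in epithelial-mesenchymal transition, were called higher in LM9 (1.15 and 1.06) and not in LM1 (0.44 and 0.29). *Tgif1*, a repressor in TGF-beta and retinoic acid signalling, stood at 65.8, 89.9 and 69.3 CPM in HR1, 70.9, 80.8 and 67.2 CPM in LM1 and 179, 183 and 140.3 CPM in LM9, with LM9 above all other tumours and called against both. *Pou6f1* stood at 15.7, 30.1 and 27.1 CPM in HR1, 5.31, 6.64 and 4.45 CPM in LM1 and 1.16, 0.801 and 0.833 CPM in LM9 and was highest in HR1 and lowest in LM9 without overlap, with calls in all 3 comparisons (-2.15, -4.70 and -2.55). *Lmx1a* stood at 0, 0 and 0.0257 CPM in HR1, 1.87, 1.16 and 1.42 CPM in LM1 and 0, 0 and 0 CPM in LM9, so that LM1 lay above all other tumours. *Pax8* was at 0 in all HR1 tumours, at 0.441, 0.340 and 0.279 CPM in LM1 and at 1.20, 1.44 and 1.53 CPM in LM9.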
